A study of Drosophila melanogaster with 36 samples.

Results

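The mitochondrial ribosomal protein genes of the fly head were taken as the genes whose platform symbol starts with mRpL, for the large subunit, or mRpS, for the small subunit. Probe sets with a single symbol were used, and a gene with more than 1 of them was represented by the probe set of its highest mean over all 36 arrays. This gave 69 genes, 44 of the large and 25 of the small subunit, among 11981 genes with such a probe set. The RefSeq annotation of assembly Release 6 plus ISO1 MT holds 73 genes with these symbols. Of the 4 that were not described, mRpS10 and mRpL53 lie on probe sets that also carry another symbol, and mRpL34 and mRpL37 were not analysed here.

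The mitochondrial ribosome translates the few proteins encoded in mitochondrial DNA, all of them core subunits of the respiratory chain and ATP synthase. Every protein of this ribosome is encoded in the nucleus, made in the cytosol and imported, and assembles with ribosomal RNA transcribed inside the organelle. Some of its proteins descend from bacterial ribosomal proteins, while others are particular to mitochondria. In flies, mutation of tko, a small subunit protein gene with an older symbol, causes developmental delay and seizures after mechanical shock, and defects of mitochondrial translation cause neurological and cardiac disease in humans.

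The study followed neurodegeneration driven by Atrophin (Atro), a nuclear co-repressor, whose polyglutamine expansion in the human counterpart causes a hereditary ataxia. The 4 genotypes were Control, which carried GMR-Gal4 and Gal80, and flies that in addition carried a transgene for wild-type Atro or for polyglutamine-expanded Atro, A66QC or A75QN. GMR-Gal4 drives expression in the eye, whereas the RNA came from whole heads, 20 a sample. Gal80 blocks the driver at the 18 °C of development and releases it at 29 °C, and flies were frozen within 48 hours of eclosion (day 0) or after 2 or 14 days at 29 °C. Each of the 12 groups had 3 arrays. The sample labels name the transgene on every day, day 0 included. Day 0 flies had just eclosed at the lower temperature, so age, temperature and, in the transgenic lines, transgene induction cannot be told apart over time. The labels do not say whether replicates came from separate cultures, so the p-values measure the spread between these samples only.

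Values are the deposited log2 signals of 1-colour arrays, where a difference of 1 is a doubling. A gene is called higher or lower where limma's moderated test, run on 18769 probe sets, gave a Benjamini-Hochberg adjusted p under 0.05. Errors of differences are standard errors with 3 arrays a group. All 69 genes had means above the median of the tested probe sets, 6.38, and their own means ran from 7.57 to 10.91 with a median of 8.45. In bulk RNA, fewer cells of a type and less RNA per cell cannot be told apart.

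The arrays did not share a distribution. The standard deviation over tested probe sets ran from 1.45 to 1.67 across arrays, and 6 arrays lay 5% or more off the median of their group: Control day 0 replicate 1, day 2 replicate 2 and day 14 replicate 2, Atro day 2 replicate 2, and A66QC day 0 replicate 2 and day 2 replicate 3. The members' level was mostly higher on arrays of wider spread, with exceptions, and no measure of this relation was computed. The part of the spread in the results was not tested beyond the rescaled fits and the fit without these 6 arrays. Those fits are given beside the counts. On Control day 2 replicate 2, with a standard deviation of 1.47, the median deviation of the 69 genes from their own means was −0.02, against 0.12 and 0.14 on the other day 2 Control arrays. The lowest deviation, −0.16, was that of A66QC day 0 replicate 2, which had the narrowest spread of the 36 arrays. Among the exceptions, Atro day 0 replicate 2, with a standard deviation of 1.52, deviated by −0.156. Control day 14 replicate 3, with 1.58, deviated by −0.08. Spike-in controls averaged 13.2 to 13.4 in A75QN at day 2 and day 14, against 10.2 to 10.8 elsewhere. Differences of these A75QN groups from A75QN day 0 or from other genotypes therefore cannot be told apart from whatever set their arrays apart. The single-symbol probe set of Gug, the gene for Atrophin, read 8.89 to 9.02 in Atro and 8.84 to 9.07 in Control at day 14, and which transgenes it can read is not known here.

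**Figure D1:**
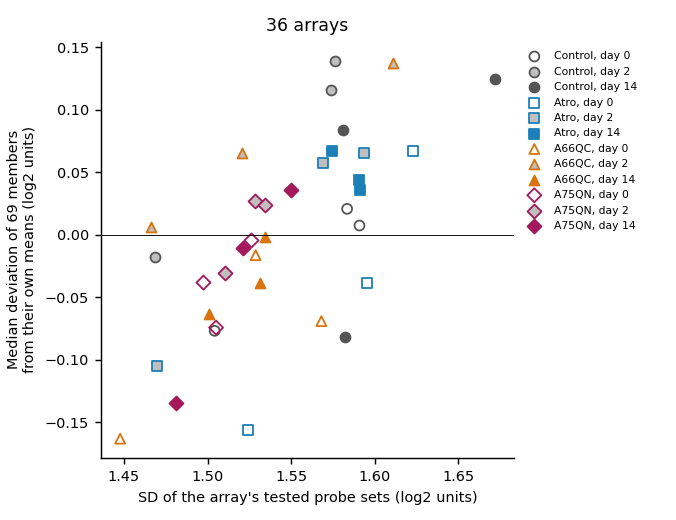
Each point is 1 of the 36 arrays, with the SD of its tested probe sets in log2 units on the x axis and the median deviation of the 69 genes from their own means over all arrays, in log2 units, on the y axis. Marker shape gives the genotype and fill the day, and arrays with a wider spread mostly lie higher.

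Between day 0 and day 14 the mitochondrial ribosomal protein genes did not move as a block. Within groups, however, their values shifted together from array to array. Deviations from group means correlated positively in all 2346 pairs of members, with a median r of 0.708. After quantile normalization the median was 0.515, with 2232 pairs positive. Over the 12 group means the median r was 0.235, with 1602 pairs positive. Counts out of the 69 are therefore not counts of independent genes. A set of 9 members, led by mRpS18B, mRpS31, mRpS29 and mRpL50, was called higher in every genotype. That is 13% of the 69, where 10.6% of tested probe sets were. Only mRpL55 and mRpL10 were called lower in every genotype, or 2.9%, where 6.42% of tested probe sets were. No member was called in opposite directions in different genotypes on the deposited scale. The rises reached 1.41-fold and the falls 0.69-fold. Of the 69 genes, 23 were called in no genotype, as were 10293 of the 18769 tested probe sets. The 3′ to 5′ difference of the GAPDH control probe sets, a sign of RNA quality, moved with the day, from 1.29 to 1.80 log2 units on day 0 arrays to 1.67 to 2.03 at day 2 and 1.74 to 2.20 at day 14, and its part in these results was not tested.

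In Control, 22 members were higher at day 14, where 19.3% of tested probe sets were, and 8 were lower, where 12.1% were. In Atro, 23 were higher against a background of 16.1%, and 5 were lower against 13.4%. A66QC had 13 higher (background 15.4%) and 12 lower (11.7%), and A75QN had 17 higher (19.3%) and 15 lower (12.0%). Over the 69 genes the median difference stood at 0.06 for Control, 0.09 for Atro, 0.03 for A66QC and −0.02 for A75QN, where the medians of all tested probe sets lay between −0.02 and 0.003. Scaling changed this balance. Quantile normalization gave 14 higher and 19 lower in Control, 28 and 11 in Atro, 16 and 16 in A66QC and 18 and 26 in A75QN, and cyclic loess gave 12 and 24, 22 and 13, 13 and 17, and 14 and 35. The tested shares higher and lower with quantile normalization were 18.4% and 16.6%, 19.0% and 16.4%, 18.6% and 16.2%, and 21.4% and 17.1%. With cyclic loess they were 18.2% and 18.2%, 17.9% and 18.4%, 16.8% and 17.3%, and 18.8% and 18.7%. Without the 6 arrays of outlying spread, Control had 11 higher and 14 lower, and the tested shares of that fit are not given.

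**Figure D2:**
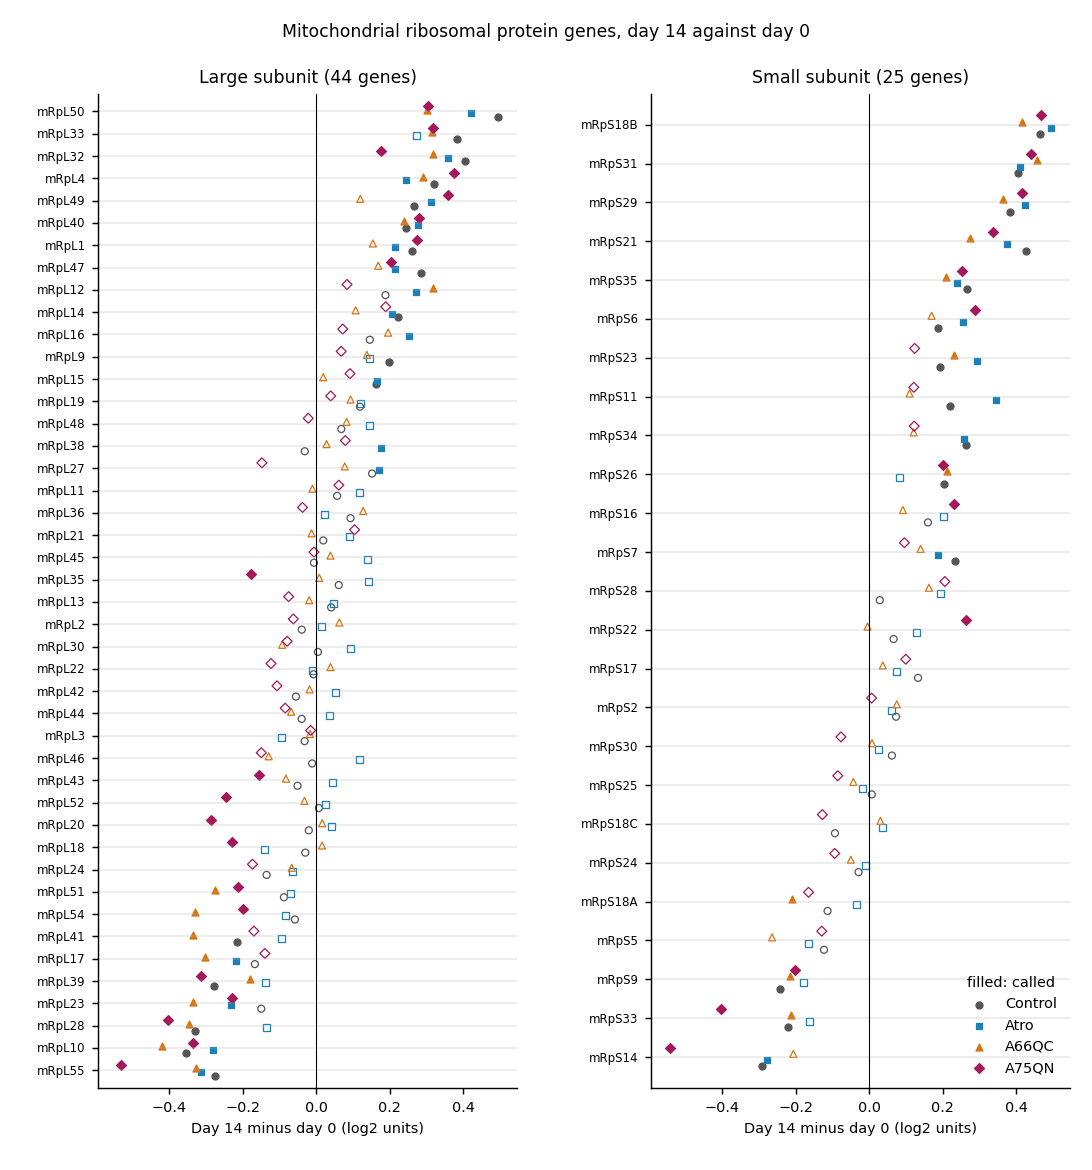
Day 14 minus day 0, in log2 units on the x axis, for each of the 69 genes, split by subunit and ordered by the mean over genotypes. Colour and shape give the genotype, each point is a difference of means of 3 arrays, and filled points were called. The points of a gene lie mostly on the same side of 0, from mRpS18B, highest in the small subunit, to mRpL55, lowest in the large subunit.

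Called higher in all 4 genotypes were 9 members, or 13% of the 69, where 10.6% of tested probe sets were. They were mRpS18B, mRpS31, mRpS29, mRpL50, mRpS21, mRpL32, mRpL4, mRpL40 and mRpS35. Under both other scalings 7 of these kept the call in all 4 genotypes, while mRpL40 and mRpL32 lost it in at least 1. Lower in all 4 were mRpL55 and mRpL10, or 2.9%, where 6.42% of tested probe sets were. That share rose to 9 members, 13%, with quantile normalization and to 11, 15.9%, with cyclic loess. The share of tested probe sets lower in all 4 was not counted under these scalings. In single genotypes the tested share called lower rose as well. It went from 12.1% to 16.6% and 18.2% in Control, and from 12.0% to 17.1% and 18.7% in A75QN. A further 6, mRpS14, mRpL28, mRpS33, mRpL23, mRpL39 and mRpS9, were lower in 3 genotypes as deposited and in all 4 under both other scalings.

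mRpS18B is one of several fly proteins related to the bacterial small subunit protein S18. At day 0 the Control arrays read 7.84, 7.92 and 7.89, the Atro arrays 7.96, 7.85 and 8.11, the A66QC arrays 7.90, 7.85 and 7.94, and the A75QN arrays 7.90, 7.84 and 7.79. At day 14 the values were 8.35, 8.43 and 8.26 for Control, 8.47, 8.46 and 8.47 for Atro, 8.32, 8.29 and 8.32 for A66QC, and 8.36, 8.20 and 8.38 for A75QN. Every day 14 array was thus above every day 0 array of any genotype. Control differed by 0.46 ± 0.06 (1.38-fold, adjusted p = 5.2e-07), Atro by 0.49 ± 0.06 (1.41-fold, adjusted p = 1.79e-07), A66QC by 0.41 ± 0.06 (adjusted p = 3.98e-06) and A75QN by 0.47 ± 0.06 (adjusted p = 4.27e-07). Each of these calls held when any single array was left out.

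mRpS29 is the fly counterpart of DAP3, a GTP-binding protein of the small subunit that has no bacterial counterpart and was first studied in cell death in mammals. In Control it read 7.85, 8.00 and 8.05 at day 0 and 8.30, 8.48 and 8.28 at day 14. In A75QN it read 7.96, 7.81 and 7.92 at day 0 and 8.36, 8.22 and 8.37 at day 14. The groups did not overlap in any genotype, and the differences lay between 0.36 ± 0.07 in A66QC (adjusted p = 6.73e-05) and 0.42 ± 0.07 in Atro (adjusted p = 6.98e-06). mRpS31, another small subunit protein without a bacterial counterpart, rose by between 0.40 ± 0.08 in Control (adjusted p = 0.000191) and 0.46 ± 0.08 in A66QC (adjusted p = 4.49e-05). Its arrays read 8.71 to 8.96 at day 0 and 9.18 to 9.39 at day 14 in Control, and 8.55 to 8.94 and 9.18 to 9.30 in A66QC. Leaving out any single array kept the calls of both genes.

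In the large subunit mRpL50, also without a bacterial counterpart, had the greatest rise of any member in Control, where it read 7.74, 7.86 and 7.91 at day 0 and 8.33, 8.44 and 8.23 at day 14. That is a difference of 0.49 ± 0.07 (1.41-fold, adjusted p = 7.22e-07). In A66QC the day 14 arrays read 8.09, 8.06 and 8.27 against 7.79 to 7.89 at day 0, a difference of 0.30 ± 0.07 (adjusted p = 0.000831). mRpL4, a protein that in bacteria lines the exit tunnel for the nascent chain, rose by 0.24 to 0.37 across genotypes. mRpL32, a zinc-binding protein whose maturation by a mitochondrial protease gates ribosome assembly in yeast and mouse, rose by 0.18 to 0.40. Its A75QN call was lost on leaving out any day 0 array, or day 14 replicate 1 or 3.

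The remaining members higher in every genotype were mRpS21, with differences of 0.27 to 0.43, mRpL40, with 0.24 to 0.28, and mRpS35, with 0.21 to 0.26. These were less firm. The A66QC call of mRpS21 was lost without day 0 replicate 2 or day 14 replicate 1. The mRpL40 call was lost in Control without day 14 replicate 1, in A75QN without day 14 replicate 1, and in A66QC without day 0 replicate 2 or day 14 replicate 1 or 3. That of mRpS35 was lost in every genotype on leaving out at least 1 array: in Control day 0 replicate 1, in Atro day 0 replicate 2 or day 14 replicate 3, in A66QC day 0 replicate 2 or 3 or day 14 replicate 1 or 3, and in A75QN day 0 replicate 3 or day 14 replicate 1.

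Higher in 3 of the 4 genotypes were mRpL33, mRpL49, mRpL1, mRpS6, mRpL47, mRpS23 and mRpS26. A second probe set of mRpL47 was called in no genotype, with differences of 0.07 to 0.13. mRpL33, a small protein of the large subunit, had the greatest mean difference of these, 0.32 over the genotypes. It read 9.20, 9.33 and 9.29 at day 0 and 9.83, 9.74 and 9.39 at day 14 in Control, without overlap (0.38 ± 0.11, adjusted p = 0.00817), a call lost without day 14 replicate 1. The calls of A66QC and A75QN, both at 0.32 ± 0.11 (adjusted p = 0.0351 and 0.0293), were lost in each line without day 0 replicate 2 or 3 or day 14 replicate 1 or 3, and Atro stood at 0.27 ± 0.11 (adjusted p = 0.0705). mRpL1, whose bacterial counterpart forms the mobile stalk beside the exit site, rose by 0.26 ± 0.06 in Control (adjusted p = 0.00112), 0.21 ± 0.06 in Atro (adjusted p = 0.00727) and 0.27 ± 0.06 in A75QN (adjusted p = 0.000667). The Atro call was lost without day 14 replicate 2, and A66QC stood at 0.15 ± 0.06 (adjusted p = 0.0644).

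Among the members that fell, mRpL10 corresponds to the bacterial protein that anchors the stalk to which translation factors bind. Its arrays read 8.89, 9.14 and 8.96 at day 0 and 8.65, 8.66 and 8.62 at day 14 in Control, and 8.95, 8.75 and 8.99 at day 0 and 8.50, 8.42 and 8.52 at day 14 in A66QC. The differences were −0.35 ± 0.07 in Control (0.78-fold, adjusted p = 0.00013) and −0.42 ± 0.07 in A66QC (0.75-fold, adjusted p = 1.42e-05). Atro, at −0.28, and A75QN, at −0.34, were also called, and all 4 calls held when any single array was left out. The stalk protein itself, mRpL12, was called in the opposite direction, higher in Atro by 0.27 ± 0.08 (adjusted p = 0.00732) and in A66QC by 0.32 ± 0.08 (adjusted p = 0.00192). In Control it differed by 0.19 and in A75QN by 0.08, without passing the test, and the Atro call was lost without day 0 replicate 2.

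mRpL55, a large subunit protein without a bacterial counterpart, read 9.01, 8.94 and 8.81 at day 0 and 8.50, 8.33 and 8.34 at day 14 in A75QN, a difference of −0.53 ± 0.10 (0.69-fold, adjusted p = 3.91e-05). In Control it read 8.96, 8.96 and 8.88 and then 8.79, 8.79 and 8.39, where day 14 replicate 3 stood below the others. That difference, −0.28 ± 0.10 (adjusted p = 0.0255), was not called without day 14 replicate 3 or without day 0 replicate 1 or 2. The Atro call was lost without day 0 replicate 3, and the A66QC call without day 0 replicate 1 or day 14 replicate 2.

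mRpS14, whose bacterial counterpart sits in the head of the small subunit, also had its greatest difference in A75QN. It read 9.07, 9.12 and 9.06 at day 0, 8.78, 8.63 and 8.63 at day 2 and 8.60, 8.37 and 8.67 at day 14 there, a day 14 difference of −0.54 ± 0.08 (0.69-fold, adjusted p = 1.66e-06). In Control it read 8.67, 8.92 and 8.86 at day 0 and 8.59, 8.61 and 8.38 at day 14, with a difference of −0.29 ± 0.08 (adjusted p = 0.00426) that was lost without day 14 replicate 3. The day 0 arrays of A75QN lay above those of the other genotypes, and the day 14 arrays did not stand apart. The test of the difference between the A75QN and Control changes gave −0.25 ± 0.11 (adjusted p = 0.333). The spike-in controls of A75QN differed between the same days, and their part in the A75QN changes was not tested. mRpS33, without a bacterial counterpart, fell by 0.40 ± 0.08 in A75QN (adjusted p = 0.000126) from 9.20, 9.17 and 9.10 to 8.90, 8.59 and 8.78, and mRpL39 by 0.31 ± 0.06 (adjusted p = 0.00018) from 7.96, 7.92 and 7.90 to 7.66, 7.51 and 7.67. Neither group pair overlapped, and both calls held when any single array was left out.

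**Figure D3:**
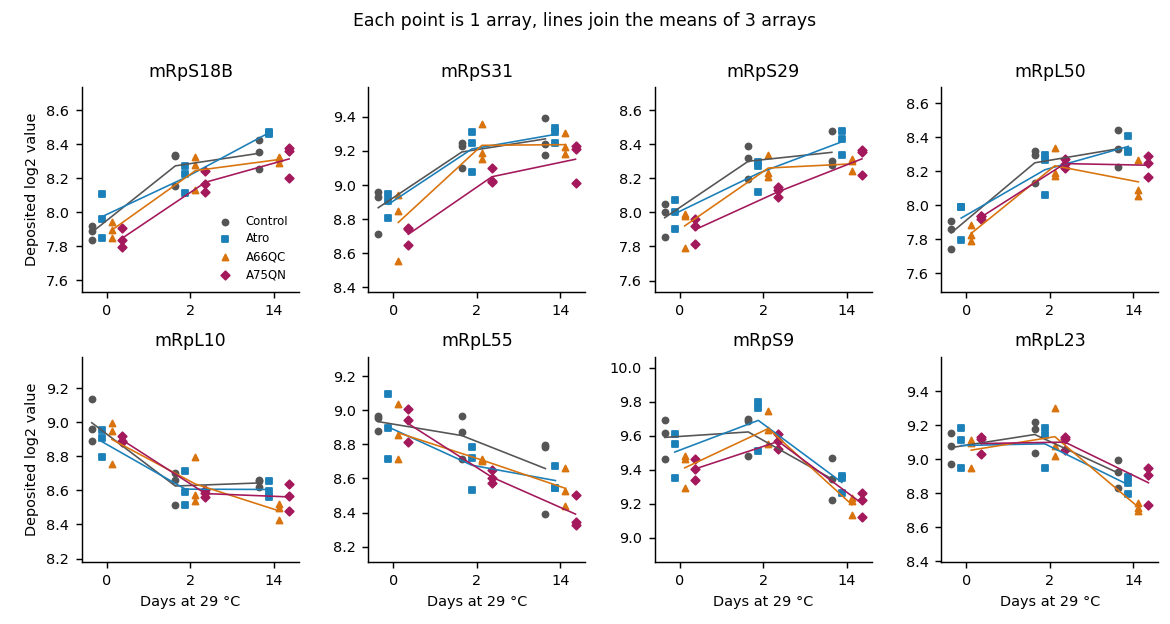
Deposited log2 value on the y axis against days at 29 °C on the x axis, evenly spaced, for 8 members chosen after their values were seen, with 1 point an array, lines through the means of 3 arrays, and 1.2 log2 units on every y axis. In the upper row day 14 lies above day 0 in all genotypes, mRpL10 and mRpL55 fall, and mRpS9 and mRpL23 lie lower at day 14 than at day 2.

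Many of the members that were higher at day 14 were already higher at day 2, among them mRpS18B, mRpS31, mRpS29, mRpL50 and mRpL32 in all 4 genotypes. Both differences use the same day 0 arrays of a genotype, so they are not independent. Relative to day 0, 22 members were higher in Control (background 10.6%), 9 in Atro (6.12%), 27 in A66QC (11.2%) and 15 in A75QN (12.8%). Lower were 3 in Control (background 11.5%), 1 in Atro (9.61%), 1 in A66QC (6.85%) and 7 in A75QN (6.92%). Higher in all 4 genotypes were mRpS31, mRpL50, mRpL12, mRpS18B, mRpL32 and mRpS29, which is 8.7% of the members against 3.69% of tested probe sets. With quantile normalization 13 members (18.8%) were higher in all 4, and with cyclic loess 10 (14.5%), among which mRpL12 was not. The tested share in all 4 was not counted under these scalings, so 3.69% holds for the deposited scale only. mRpL10 was lower in all 4, by 0.26 to 0.37. The Atro and A66QC counts rested on single arrays. Atro had 16 calls in place of 10 without day 2 replicate 2, 5 without day 0 replicate 1 or 2, 4 without day 2 replicate 3 and 3 without day 2 replicate 1, and A66QC had 15 in place of 28 without day 0 replicate 2 or day 2 replicate 3. Without the arrays of outlying spread these counts were 20 and 14.

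Scaling moved the day 2 split of A75QN to 15 higher and 19 lower with quantile normalization and 13 and 21 with cyclic loess. That of A66QC became 27 and 5 with quantile normalization and 22 and 5 with cyclic loess. In Control the split was 30 and 3 with quantile normalization and 27 and 4 with cyclic loess, and in Atro 27 and 1, and 22 and 1. Tested shares higher and lower with quantile normalization were 15.0% and 11.7% in A75QN, 13.5% and 12.2% in A66QC, 15.4% and 14.5% in Control and 12.4% and 11.0% in Atro. With cyclic loess they were 12.4% and 13.2%, 12.1% and 13.3%, 14.9% and 15.5%, and 11.3% and 12.6%.

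mRpL12 had the greatest day 2 rise of any member, in A66QC, where it read 8.14, 8.03 and 8.05 at day 0, 8.55, 8.58 and 8.71 at day 2 and 8.36, 8.39 and 8.43 at day 14. The day 2 difference was 0.54 ± 0.08 (1.45-fold, adjusted p = 4.57e-06), and the day 14 arrays lay between the other groups. In Control the rise was 0.39 ± 0.08 (adjusted p = 0.000319), from 8.15, 8.28 and 8.31 to 8.73, 8.47 and 8.71. The A75QN rise, 0.22 ± 0.08 (adjusted p = 0.0423), was lost on leaving out any 1 of its 6 arrays. mRpL28 had the deepest fall, in A75QN, from 10.17, 10.10 and 10.08 to 9.76, 9.73 and 9.60, a difference of −0.42 ± 0.08 (adjusted p = 0.000187).

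By subunit, 11 of 25 small subunit genes and 11 of 44 large subunit genes were higher at day 2 in Control. The same counts were 4 and 5 for Atro, 15 and 12 for A66QC, and 10 and 5 for A75QN. The median difference of the small subunit was 0.17, 0.12, 0.21 and 0.16 in the same order, and that of the large subunit 0.08, 0.02, 0.09 and 0.01. The shares were not compared by a test. At day 14 relative to day 0 the higher calls were 11 small and 11 large for Control, 10 and 13 for Atro, 7 and 6 for A66QC, and 9 and 8 for A75QN. Subunits were assigned by symbol. In mammals the counterparts of mRpS18A and mRpS30 sit in the large subunit, and neither gene was called higher at day 14.

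From day 2 to day 14 few members moved on the deposited scale. Control had none higher and 4 lower (background 10.3% and 3.16%), Atro 4 and 2 (13.1% and 6.83%), A66QC none and 9 (6.93% and 8.19%), and A75QN 1 and 5 (8.55% and 7.56%). At an unadjusted p under 0.05, limma gave 6 members in either direction in Control, where 26.3% of tested probe sets had such a p, and 26 in A66QC, where 24.2% did. mRpS9 and mRpL23 were lower in all 4 genotypes under each of the 3 scalings. The Control count depended on scaling, since quantile normalization gave none higher and 32 lower and cyclic loess none and 34, with the members' median moving from −0.04 to −0.14 and −0.15. In Atro the split turned to 2 higher and 7 lower with quantile normalization and 2 and 9 with cyclic loess, and in A75QN to 6 and 9, and 5 and 9. Tested shares higher and lower with quantile normalization were 7.70% and 8.08% in Control, 13.6% and 12.2% in Atro and 13.3% and 12.2% in A75QN. With cyclic loess they were 7.86% and 8.75%, 13.3% and 12.9%, and 12.6% and 12.6%. A66QC had none higher and 18 lower with quantile normalization, where 12.3% and 11.5% of tested probe sets were. Under cyclic loess it had none and 17, where 11.6% and 11.9% were.

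mRpS9, whose bacterial counterpart reaches with its tail to the tRNA in the P site, was level or higher at day 2 and lowest at day 14. In Atro it read 9.55, 9.35 and 9.61 at day 0, 9.76, 9.51 and 9.80 at day 2 and 9.26, 9.35 and 9.37 at day 14. In A66QC it read 9.48, 9.30 and 9.46, then 9.55, 9.63 and 9.74, then 9.13, 9.22 and 9.23, and its day 2 and day 14 groups did not overlap in any genotype. Day 14 minus day 2 was −0.45 ± 0.08 in A66QC (0.73-fold, adjusted p = 8.35e-05), −0.36 ± 0.08 in Atro (adjusted p = 0.000801), −0.36 ± 0.08 in A75QN (adjusted p = 0.00107) and −0.28 ± 0.08 in Control (adjusted p = 0.0161). The Control call was lost without day 2 replicate 1 or 3 or day 14 replicate 3.

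mRpL23, named after a bacterial protein at the mouth of the exit tunnel, had a like course. It read 9.02, 9.08 and 9.30 at day 2 and 8.72, 8.70 and 8.74 at day 14 in A66QC, a difference of −0.41 ± 0.07 (adjusted p = 0.000101). In the other genotypes it fell by 0.23 to 0.24, calls that were lost on leaving out 1 of several arrays: in Control day 2 replicate 1 or 3 or day 14 replicate 1 or 3, in Atro day 2 replicate 1 or 3 or day 14 replicate 3, and in A75QN day 2 replicate 1 or 2 or day 14 replicate 2. mRpL41 was lower in Control, A66QC and A75QN, with differences of −0.24, −0.37 and −0.26, and stood at −0.15 in Atro. mRpL20 was lower in the same 3 genotypes, by 0.23, 0.24 and 0.25. The Control count of 4 fell to 0 without day 2 replicate 1, day 2 replicate 3 or day 14 replicate 3, and was 8 without the arrays of outlying spread. The A66QC count was 15 without day 2 replicate 1, 4 without day 2 replicate 3 and 5 without day 14 replicate 2, and the A75QN count was 1 without day 2 replicate 1, 2 without day 2 replicate 2 and 3 without day 14 replicate 2.

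The respiratory chain subunits and the cytosolic ribosome gave other values over the same interval. Of 72 nuclear genes for oxidative phosphorylation subunits, 48 fell between day 0 and day 14 in Control, as did 47 for Atro, 49 for A66QC and 50 for A75QN, and 46 fell in all 4 genotypes. Those 46 are 63.9% of the list, where 6.42% of tested probe sets fell in all 4. In single genotypes 12.1%, 13.4%, 11.7% and 12.0% of tested probe sets fell. The median difference of the 72 genes was −0.32, −0.34, −0.37 and −0.49 in that order. Of 41 genes for cytosolic ribosomal proteins, 30, 28, 20 and 33 rose, with medians of 0.42, 0.27, 0.21 and 0.39, and 19 rose in all 4 genotypes. Those 19 are 46.3% of the list, where 10.6% of tested probe sets rose in all 4. In single genotypes 19.3%, 16.1%, 15.4% and 19.3% of tested probe sets rose. The difference between the lists was not tested.

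**Figure D4:**
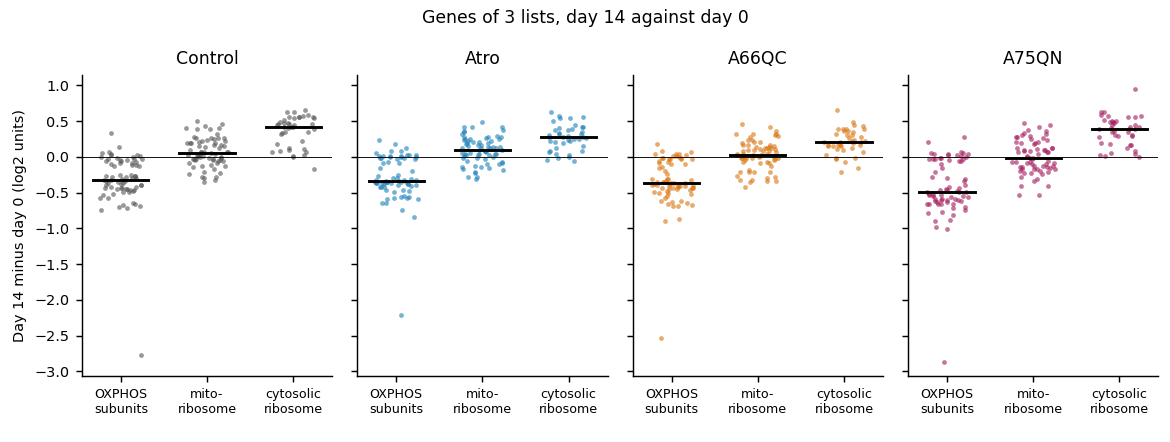
Day 14 minus day 0, in log2 units on the y axis, for 72 oxidative phosphorylation (OXPHOS) subunit genes, the 69 mitochondrial ribosomal protein genes and 41 cytosolic ribosomal protein genes in each genotype. Each point is a gene, spread sideways at random, and black bars are medians, which in Control lie at −0.32, 0.06 and 0.42.

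Muscle genes fell over the same interval. Of 15 muscle markers, 13 fell in Control and 14 in each of the other genotypes, and the median differences were −1.53 for Control, −1.29 for Atro, −1.25 for A66QC and −1.43 for A75QN. The mean log2 level of the list ran from 10.44 to 10.82 on Control day 0 arrays and from 9.33 to 9.53 at day 14, and from 10.66 to 10.75 and 9.35 to 9.40 in A75QN. Of 9 neuron markers 2 to 5 changed in each genotype, of 6 photoreceptor markers 2 to 4 and of 6 glia markers 3 to 5, in both directions or in 1. Of 5 haemocyte markers 3 or 4 rose in each genotype, and of 8 fat body markers 4, 4, 3 and none rose. Over all tested probe sets 19.3%, 16.1%, 15.4% and 19.3% rose and 12.1%, 13.4%, 11.7% and 12.0% fell, in the same order. The part of these markers in the members' differences was not tested.

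Among other genes of mitochondrial gene expression, day 14 calls were more often higher than lower. Over all tested probe sets 15.4% to 19.3% were higher and 11.7% to 13.4% lower in a genotype. Both mitochondrial ribosomal protein genes with older symbols, tko (the counterpart of bacterial S12, in the decoding centre) and bonsai (of S15), were called in Control, tko higher by 0.24 ± 0.08 (adjusted p = 0.0228) and bonsai by 0.16 ± 0.06 (adjusted p = 0.0446). In Atro tko was higher by 0.35 ± 0.08 (adjusted p = 0.00116), while in A75QN it stood at 0.02 and bonsai at −0.08. Among 9 mitochondrial translation factors, mRF1, the release factor, rose in all 4 genotypes, by 0.46 to 0.68 (adjusted p in A75QN = 6.44e-11), and 1, 2, 2 and 2 of the list were higher and none, none, none and 1 lower in Control, Atro, A66QC and A75QN.

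Among 15 mitochondrial aminoacyl-tRNA synthetase genes, 5, 5, 3 and 6 were higher and 1 was lower in each genotype. The enzyme for asparagine, AsnRS-m, rose by between 0.30 ± 0.05 in Atro (adjusted p = 1.17e-05) and 0.52 ± 0.05 in Control (adjusted p = 6.74e-10). That for arginine, ArgRS-m, fell by 0.24 to 0.32 in every genotype. Of 16 genes for mitochondrial DNA and RNA maintenance, 7, 6, 7 and 7 were higher, against 19.3%, 16.1%, 15.4% and 19.3% of tested probe sets. TFAM, which packages mitochondrial DNA, was the single member of that list called lower, in Atro at −0.26 (adjusted p = 0.024), and stood at −0.18 to −0.20 in the other genotypes without passing the test. The single-stranded DNA binding protein gene mtSSB rose by 0.46 to 0.52, and mldr and scu, which encode subunits of mitochondrial RNase P, by 0.33 to 0.43 and by 0.27 to 0.61.

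The transgenic lines were then compared with Control on each day. The labels name a single line for each transgene, so its effect cannot be told apart from other differences between the genotypes. Newly eclosed flies had not yet been shifted to the temperature that releases the driver. Their comparison therefore gives differences between the lines before the planned induction, and not a response to it. The 3 lines share the Control arrays of a day, so their values stand side by side and are not independent. Few members were called as deposited. At day 14 those calls, all lower, were lost under both other scalings, where other members were called higher. The balance over all tested probe sets also moved from lower towards higher.

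At day 0, before the shift to 29 °C, Atro had none higher and 1 lower (4.37% of tested probe sets called in either direction), A66QC none and 1 (10.9%), and A75QN 1 and 2 (7.04%). mRpS28, a small subunit protein, was the member called in all 3 lines. It read 8.58, 8.78 and 8.57 in Control, 8.31, 8.26 and 8.46 in Atro, 8.46, 8.17 and 8.39 in A66QC, and 8.39, 8.33 and 8.33 in A75QN, so that every array of the lines lay below every Control array. The difference was −0.30 ± 0.08 in Atro (adjusted p = 0.0289), −0.31 ± 0.08 in A66QC (adjusted p = 0.015) and −0.30 ± 0.08 in A75QN (adjusted p = 0.0259). All 3 calls were lost without Control replicate 2, and others were lost without Atro replicate 1 or 2, A66QC replicate 2, or A75QN replicate 2 or 3. With quantile normalization the A66QC and A75QN calls were lost (adjusted p = 0.0551 and 0.0687), and with cyclic loess that of A75QN (adjusted p = 0.0625).

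A75QN also had mRpS22 lower at day 0, by 0.22 ± 0.07 (adjusted p = 0.0396), and mRpS14 higher, by 0.27 ± 0.08 (adjusted p = 0.033). The mRpS14 call was lost in 5 of the 6 fits that left out 1 array, all but the one without Control replicate 2, and the mRpS22 call in 5, all but the one without Control replicate 1. Scaling turned the day 0 splits to none higher and 7 lower in Atro, 5 and none in A66QC and 10 and none in A75QN with quantile normalization, and to none and 5, 5 and 1, and 11 and none with cyclic loess. The tested shares were 4.65% and 4.01%, 6.95% and 7.55%, and 4.12% and 4.82% with quantile normalization. With cyclic loess they were 5.43% and 3.52%, 6.96% and 7.72%, and 4.78% and 4.07%.

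At day 2 Atro had none higher and 2 lower (3.63% called in either direction), A66QC none and 1 (3.44%), and A75QN none and 1 (4.68%). mRpL43, a large subunit protein without a bacterial counterpart, read 8.37, 8.24 and 8.41 in Control, 8.11, 8.07 and 8.23 in Atro and 8.13, 8.02 and 8.11 in A75QN. Neither line overlapped Control, with differences of −0.21 ± 0.06 in Atro (adjusted p = 0.0434) and −0.25 ± 0.06 in A75QN (adjusted p = 0.00738). A66QC read 8.10, 8.24 and 8.27, a difference of −0.14 ± 0.06 (adjusted p = 0.273). The Atro and A75QN calls held under both other scalings. The A75QN call was lost without Control replicate 3 or A75QN replicate 2, and that of Atro without Control replicate 1 or 3 or Atro replicate 1 or 2.

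mRpS24, a small subunit protein, was lower at day 2 in Atro and A66QC. It read 8.24, 8.21 and 8.30 in Control, 8.10, 7.96 and 8.10 in Atro and 8.01, 8.03 and 8.10 in A66QC, again without overlap. Both differences were −0.20 ± 0.06 (adjusted p = 0.0424 and 0.0374), and in A75QN it was −0.13 ± 0.06 (adjusted p = 0.266). The Atro call was lost on leaving out any 1 of its 6 arrays, and that of A66QC without Control replicate 1 or 3 or A66QC replicate 1 or 2. Quantile normalization gave none higher and 5 lower in Atro, none of either in A66QC and 1 and 5 in A75QN at day 2, and cyclic loess none and 4, none and 1, and none and 6. The tested shares were 3.80% and 4.66%, 3.75% and 3.87%, and 5.88% and 5.96% with quantile normalization. With cyclic loess they were 4.00% and 4.25%, 3.35% and 4.24%, and 5.06% and 6.29%.

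At day 14 Atro had no member called by limma in either direction (background 4.18%) and 2 at an unadjusted p under 0.05, where 13.8% of tested probe sets were. A66QC had none higher and 3 lower (17.9% of tested probe sets called in either direction), and A75QN none and 2 (15.6%). The median difference over the 69 genes was −0.08 in both polyglutamine lines and 0.01 in Atro. Quantile normalization turned the splits to 3 higher and none lower in Atro, 10 and none in A66QC and 7 and none in A75QN, with medians of 0.09 in A66QC and 0.05 in A75QN. Over all tested probe sets it moved A66QC from 4.17% higher and 13.8% lower to 7.76% and 6.97%. A75QN moved from 5.80% and 9.80% to 7.31% and 6.21%, and Atro from 1.86% and 2.32% to 4.54% and 3.71%. Cyclic loess gave 4, 8 and 2 higher and none lower. Under it 4.96%, 7.26% and 6.74% of tested probe sets were higher and 3.86%, 7.70% and 6.73% lower. The GAPDH 3′ to 5′ difference at day 14 was 1.74 to 1.88 in Control, 2.04 to 2.19 in Atro, 2.14 to 2.20 in A66QC and 1.87 to 2.17 in A75QN, and its part was not tested. Without Control day 14 replicate 3, 9 members were lower in A66QC and 12 in A75QN. The shares of tested probe sets in that fit are not given, so these counts have no background beside them.

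**Figure D5:**
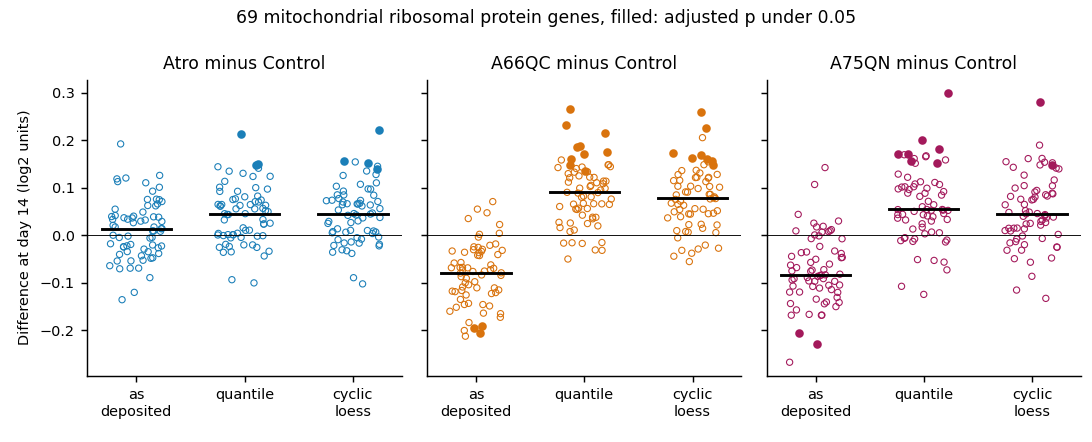
Line minus Control at day 14, in log2 units, for the 69 genes in each transgenic line under the values as deposited and after quantile and cyclic loess normalization. Filled points had an adjusted p under 0.05, and in A66QC and A75QN they lie below 0 as deposited, 3 and 2 of them, and above 0 after either normalization.

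mRpL43, called in Atro and A75QN at day 2, was the member called in both polyglutamine lines at day 14. It read 8.33, 8.27 and 8.16 in Control, 8.15, 8.22 and 8.18 in Atro, 8.05, 8.02 and 8.11 in A66QC, and 8.05, 8.02 and 8.00 in A75QN. The polyglutamine lines lay below every Control and Atro array, by 0.19 ± 0.06 in A66QC (adjusted p = 0.0246) and 0.23 ± 0.06 in A75QN (adjusted p = 0.00848) relative to Control. The A75QN call held when any single array was left out, the A66QC call was lost without Control replicate 1 or 2 or A66QC replicate 1 or 2, and neither held with quantile normalization (adjusted p = 0.763 and 0.17) or cyclic loess (adjusted p = 0.697 and 0.133). Already at day 0, mRpL43 stood at −0.17 in Atro and −0.16 in A66QC relative to Control, not called as deposited. Both other scalings called that Atro difference (limma adjusted p = 0.00705 and 0.0101) and not that of A66QC. The change from day 0 to day 14 differed from Control by 0.10 in Atro, −0.03 in A66QC and −0.10 in A75QN, none of them called.

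The other day 14 calls were mRpL54 and mRpL50 in A66QC, with differences of −0.21 ± 0.07 (adjusted p = 0.0325) and −0.19 ± 0.07 (adjusted p = 0.0459), and mRpL32 in A75QN, at −0.20 ± 0.07 (adjusted p = 0.032). Each was lost under both other scalings and on leaving out any of several arrays. For mRpL54 these were Control replicate 1 or 2 or any A66QC array, for mRpL50 Control replicate 1 or 2 or A66QC replicate 1 or 2, and for mRpL32 Control replicate 1 or 2 or A75QN replicate 2 or 3.

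The polyglutamine lines were also set against wild-type Atro. At day 2 limma called no member in A66QC or A75QN (background 0.517% and 2.12%), with 2 and 0 at an unadjusted p under 0.05, where 7.54% and 9.75% of tested probe sets were. At day 14 A66QC had none higher and 2 lower (5.86% in either direction), and A75QN none and 4 (9.29%). Quantile normalization gave 1 and none in A66QC and 7 and 1 in A75QN, and cyclic loess 1 and none, and 5 and 1. The tested shares were 2.90% and 3.60%, and 6.41% and 6.32%, with quantile normalization. With cyclic loess they were 2.61% and 4.12%, and 5.96% and 6.93%.

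mRpS11, whose bacterial counterpart lies near the messenger RNA at the exit site of the small subunit, was lower than Atro in both. It read 9.02, 9.04 and 8.99 in Atro, 8.76, 8.72 and 8.85 in A66QC, and 8.77, 8.66 and 8.76 in A75QN, and Control read 8.94, 8.97 and 8.78. The polyglutamine lines did not overlap Atro, while the Control arrays lay below Atro and overlapped A66QC. The difference was −0.29 ± 0.06 in A75QN (0.82-fold, adjusted p = 0.00245), which held when any single array was left out and under quantile normalization (adjusted p = 0.0348) and cyclic loess (adjusted p = 0.012). In A66QC it was −0.24 ± 0.06 (adjusted p = 0.0169) and was lost under both scalings, and without Atro replicate 1 or 2 or A66QC replicate 1 or 2. The second probe set of mRpS11 gave smaller differences from Atro, −0.13 ± 0.05 in A66QC (adjusted p = 0.146) and −0.12 ± 0.05 in A75QN (adjusted p = 0.168), and was called in neither line. Relative to Control that probe set was lower in both, by 0.18 ± 0.05 (adjusted p = 0.0139) and 0.17 ± 0.05 (adjusted p = 0.0272), where the probe set used here was not called (adjusted p = 0.172 and 0.0666).

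mRpL38 was also lower in both lines, by 0.23 ± 0.06 in A66QC (adjusted p = 0.021) and 0.20 ± 0.06 in A75QN (adjusted p = 0.0318), and mRpL35 and mRpL20 in A75QN, by 0.21 ± 0.06 and 0.23 ± 0.07 (adjusted p = 0.0215 and 0.0325). These calls were lost under both scalings. That of mRpL38 was lost without Atro replicate 1 or 3 or any A66QC array in A66QC, and without Atro replicate 1 or 3 or A75QN replicate 2 or 3 in A75QN. That of mRpL35 was lost without Atro replicate 1 or 3 or A75QN replicate 2, and that of mRpL20 without any Atro array or A75QN replicate 2 or 3.

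Whether the change from day 0 to day 14 differed between a line and Control was tested directly. No member passed in Atro, A66QC or A75QN by limma, where 2.11%, 2.29% and 3.09% of tested probe sets did, and 1, 1 and 8 members had an unadjusted p under 0.05, as did 9.85%, 9.32% and 12% of tested probe sets. The smallest adjusted p was that of mRpL27 in A75QN, at −0.30 ± 0.09 (95% interval −0.48 to −0.12, adjusted p = 0.0648). Over the 69 genes the 95% interval of such a difference reached a median of 0.198 to either side, so smaller differences between genotypes could not be resolved with 3 arrays a group. Quantile normalization gave 2 higher in Atro, 1 lower in A66QC and 1 of each in A75QN, and cyclic loess 2 higher, 1 lower, and 1 higher and 3 lower. The tested shares higher and lower were 2.26% and 2.09%, 1.94% and 2.50%, and 4.51% and 4.07% with quantile normalization. With cyclic loess they were 2.16% and 2.51%, 1.79% and 2.79%, and 3.02% and 4.49%.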

How the data were processed

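RNA from fly heads was measured on 36 1-colour Affymetrix arrays, 3 in each of 12 groups of genotype and day. The values are the log2 signals the authors deposited. R 2.11.0 is named per the submitters' processing notes, and their background correction and normalization are not stated in the sources used here. Arrays have no read depth, and their number limits the precision. Of 18952 probe sets, 183 controls were left out. Of the remaining 18769, 13646 have 1 gene symbol in GEO's platform annotation, 402 several and 4721 none. limma 3.58.1 in R 4.3.3 fitted a mean for each group over all arrays (24 residual and 6.49 prior degrees of freedom), with Benjamini-Hochberg adjustment over all tested probe sets in each comparison. The computation was tested on simulated data.

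The members and lists were chosen with earlier results of these data known. The text names up to 6 members of greatest rise and fall among those called in a comparison, members called in several genotypes, and of other lists up to 4 genes of smallest adjusted p. TFAM, tko and bonsai were named after their values were seen. Alternatives were quantile and cyclic loess normalization, array weights, a replicate block, only the groups compared, a trended prior, brighter probe sets, averaged probe sets, each array left out and, chosen after seeing the data, the fit without 6 arrays of outlying spread. Same-numbered replicates deviated together in every pair, with correlations over all probe sets of 0.148 to 0.474, for Atro days 0 and 2 and of 0.273 to 0.678 for Atro and Control at day 2, a pairing seen in the data and not stated in the labels. Elsewhere they shared a number only.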

Additional observations from a re-analysis of the deposited data

How the results depend on the processing

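The counts below are of members called in either direction. For fits other than the deposited and rescaled ones, here and above, the shares of all tested probe sets are not given. Those counts therefore have no background beside them. Over 245 calls of single members, 3013 repeats under an alternative kept the call, 662 lost it and none reversed it. With 3 arrays a group, differences within the intervals given could not be resolved.

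Quantile normalization moved these counts past 1.5 times: over time, Control days 2 to 14 to 32, Atro days 0 to 2 to 28, A66QC days 2 to 14 to 18, A75QN days 0 to 2 to 34 and days 2 to 14 to 15; against Control in Atro, A66QC and A75QN, 7, 5 and 10 at day 0, 5, 0 and 6 at day 2, and 3, 10 and 7 at day 14; against Atro, 2 and 1 at day 2 and 1 and 8 at day 14; in the changes, 2, 1 and 2. Cyclic loess gave Control days 2 to 14 34, Atro 23 by day 2 and 11 after it, A66QC 17 after day 2, and A75QN 34 by day 2, 14 after it and 49 by day 14. Against Control it gave 5, 6 and 11 at day 0, 4 in Atro and 6 in A75QN at day 2, and 4 in Atro and 8 in A66QC at day 14, against Atro 1 and 1 at day 2 and 1 in A66QC at day 14, and in the changes 2, 1 and 4.

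Array weights gave Control 16 after day 2, Atro 48 by day 2, 28 after it and 47 by day 14, A66QC 7 and 4, and A75QN 34 and 10. Against Control they gave 3, 6 and 9 at day 0, 21, 0 and 24 at day 2, and 1 in Atro and 1 in A75QN at day 14, against Atro 18 in A75QN at day 2 and 16 and 14 at day 14, and in the changes 2 in Atro and 1 in A66QC. With only the groups compared, Control had 1 after day 2, Atro 4 and A66QC 16 by day 2, the lines 0 in Atro and A66QC at day 0, 0, 0 and 3 at day 2, 6 in A66QC and 1 in A75QN at day 14, and 16 and 7 against Atro at day 14. A trended prior gave 0 in Atro and A66QC at day 2, 1 in A66QC at day 14, and 1 and 2 against Atro at day 14. Brighter probe sets gave 5 in A66QC at day 14 and 1 in the change of A75QN. Without the 6 arrays of outlying spread, Control had 8 after day 2, Atro 20 and A66QC 14 by day 2, the lines 0 in A66QC and 7 in A75QN at day 0, 0, 7 and 8 at day 2, 1 and 1 in A66QC and A75QN at day 14, and against Atro 1 and 2 at day 2 and 7 and 12 at day 14. Averaging the probe sets of a gene moved no count.

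With the replicate number as a block, A66QC had 5 members against Control at day 14, and no other count moved by over 1.5 times. Where same-numbered samples deviated together, the block gave 11 in place of 10 for Atro days 0 to 2 and 2 in place of 2 for Atro against Control at day 2. Elsewhere the lowest correlation of a pair was −0.599, in Control days 2 to 14.

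Leaving out single arrays gave, for days 0 to 2, 2 to 14 and 0 to 14, 17 to 27, 0 to 5 and 21 to 31 in Control, 3 to 16, 4 to 7 and 21 to 29 in Atro, 15 to 29, 4 to 15 and 18 to 23 in A66QC, and 15 to 18, 1 to 5 and 24 to 29 in A75QN. Against Control it gave 0 to 1, 0 to 3 and 0 to 2 at day 0, 0 to 2, 0 to 1 and 0 to 2 at day 2, and 0 to 0, 0 to 9 and 1 to 12 at day 14. Against Atro it gave 0 to 0 in both lines at day 2, and 0 to 2 and 1 to 7 at day 14, and in the changes 0 to 0, 0 to 1 and 0 to 4. The cause of these shifts was not tested.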
